A study of Mus musculus with 24 samples.

Results

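Hearts that carried the transgenes of both O-GlcNAc enzymes were compared with hearts that carried the OGA transgene alone. The 6 DTG hearts came from mice labelled OGT_TG_x_OGA_TG and were set against the 6 labelled OGA_TG, so 12 of the 24 hearts of the series entered, chosen by genotype label and not by any measured value. Each genotype had 3 males and 3 females. Both genotypes carry a cardiac-specific OGA transgene, and DTG mice carry a cardiac-specific OGT transgene in addition. The other 12 hearts, 6 with the OGT transgene alone (OGT_TG) and 6 wild type (WT), were used only to ask whether the OGT transgene went with another difference where no OGA transgene was present. All mice were untreated adults on C57BL/6J, with no further age given. The promoter that drives each transgene, the number of founder lines and the species of each transgene are not given in the sources used here.

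O-GlcNAc is a single sugar, N-acetylglucosamine, that is attached to serine and threonine residues of nuclear, cytoplasmic and mitochondrial proteins. O-GlcNAc transferase (OGT) adds it, with UDP-GlcNAc from the hexosamine pathway as donor, and O-GlcNAcase (OGA, older gene symbol Mgea5) removes it. In cells the RNA levels of both enzymes are known to follow the O-GlcNAc level, so that OGT RNA falls and OGA RNA rises when the modification is abundant. In heart muscle the modification is known from work on glucose metabolism, calcium handling and the response to pressure load.

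Messenger RNA of the entire heart was sequenced, and the values are FPKM, fragments mapped to a gene scaled by its transcript length and by the depth of the library. The total count per heart cannot be read from FPKM. Ratios of low values between hearts clustered at ratios of small whole numbers, from which the relative depth was 0.771 to 1 in DTG and 0.739 to 0.972 in OGA_TG hearts (DTG replicate 1 set to 1). The label of heart tissue matched its markers: the 11 tested cardiomyocyte markers summed to 46393 to 52941 FPKM in DTG and 54349.5 to 59881 FPKM in OGA_TG hearts. None of the 11 rose and 4 fell (Tnnt2, Actc1, Myl2 and Pln), against 12.7% of all rows lower. Pln kept its call in all 26 alternative settings of the processing. Actc1, Tnnt2 and Myl2 lost theirs in 3, 4 and 7 of them, quantile normalization among them for Actc1 and Myl2. The part of the lower marker sum in the results below was not tested. Differences are given as log2(FPKM + 1) in DTG minus OGA_TG, which understates the change of low genes. They were tested with limma, with sex as a term, and the threshold for a call was 0.05 after Benjamini-Hochberg adjustment over the 11565 rows tested. "Rose" and "fell" are used for called genes.

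The OGT transgene separated the groups completely. The row OGT ranged over 3986, 4716 and 5261 FPKM (lowest, median and highest of 6 hearts, here and below) in DTG hearts and over 0.356, 0.522 and 1.11 FPKM in OGA_TG hearts. No DTG heart overlapped an OGA_TG heart. The difference was 11.53 log2, with p = 0.00216 in the exact two-sided permutation test over all splits of the 12 hearts, which is the smallest p this design can give (0.00289 adjusted over 4 such tests). The row OGA, the transgene that both groups carry, had 3065, 3432 and 3922 FPKM in DTG hearts and 3089.9, 4187 and 5208 FPKM in OGA_TG hearts. These ranges overlapped, and the difference of -0.24 log2 did not pass (exact permutation p = 0.0736; limma adjusted p = 0.088).

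The mouse's own enzyme genes moved in opposite directions. Ogt (chromosome X, 101640060 to 101684351, mm10) had 23.3, 24.6 and 29.9 FPKM in DTG hearts and 38.6, 40.5 and 48.5 FPKM in OGA_TG hearts. It fell by 0.69 on the log2 scale, and every DTG heart was below every OGA_TG heart. Mgea5, the mouse OGA gene (chromosome 19, 45750259 to 45783837), had 42.9, 46.6 and 55.7 FPKM in DTG hearts and 20.8, 23.9 and 29.4 FPKM in OGA_TG hearts, again without overlap, and rose by 0.93 log2. Each gave the exact permutation p of 0.00216 (0.00289 adjusted). The mean of Ogt was 25.5 ± 2.59 FPKM in DTG, 41.6 ± 3.70 in OGA_TG, 31.6 ± 2.59 in OGT_TG and 35.8 ± 3.24 in WT hearts (SD, n = 6 each). The mean of Mgea5 was 47.7 ± 5.14 FPKM in DTG, 24.7 ± 3.44 in OGA_TG, 54.7 ± 10.9 in OGT_TG and 42.0 ± 5.24 in WT hearts (SD, n = 6 each). How reads shared by a transgene and its mouse gene were assigned is not given in the sources used here, so the mouse rows may hold transgene reads. Of the other hexosamine genes, Gfpt1, whose enzyme controls entry into the pathway, fell (-0.40 ± 0.073 log2, here and below ± SE; adjusted p = 0.00157). The remaining 13 of 16 tested members of that list were not called, among them Gfpt2 (0.04, adjusted p = 0.707).

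**Figure D1:**
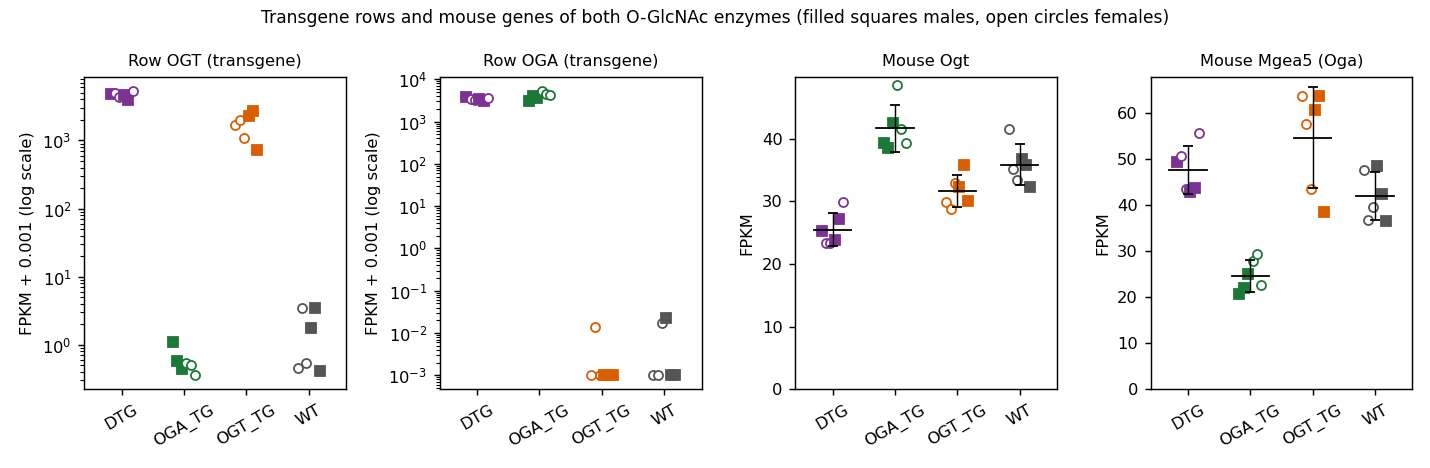
FPKM of the transgene rows OGT and OGA (log axis, 0.001 added so that 0 can be shown) and of mouse Ogt and Mgea5 (linear axis) in each of 24 hearts. Bars give the mean and SD of 6 hearts; the 6 DTG hearts lie below the OGA_TG hearts for Ogt and above them for Mgea5.

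The rest of the transcriptome differed widely between the genotypes, mostly by less than 1 log2. Of 11565 rows, 2898 (25.1%) were called, 1430 higher (12.4%) and 1468 lower (12.7%) in DTG hearts. When hearts were rescaled to an equal sum of FPKM, 1759 were higher and 1020 lower. The 6 hearts of each genotype did not overlap in 1328 rows (11.5%), with DTG above in 5.62% and below in 5.86%. Only 68 called rows (0.588%) differed by at least 1 log2, 42 higher (0.363%) and 26 lower (0.225%). The median difference of all rows was 0.01. On the first principal component of the 12 hearts, with 40.4% of the variance, the DTG hearts lay between -19.2 and -8.92 and the OGA_TG hearts between 7.69 and 23.2. The groups share no number at the start of the sample titles, whose meaning the labels do not give, so genotype and title number cannot be told apart. With title number as a random block 1483 rows were called, 707 higher and 776 lower. List counts under this block, given below, stand against these smaller counts of all rows.

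The largest rises came from several gene families. Among named genes without overlap between the groups, Cilp, a matrix protein of activated fibroblasts, had 11.7, 18.1 and 22.5 FPKM in DTG hearts and 4.38, 4.85 and 5.41 FPKM in OGA_TG hearts (1.61 ± 0.15 log2, adjusted p = 7.4e-06). Uchl1, a ubiquitin hydrolase abundant in neurons, had 14.3, 14.9 and 18.4 FPKM in DTG hearts and 3.71, 4.34 and 6.03 FPKM in OGA_TG hearts (1.59 ± 0.10, adjusted p = 5.04e-07). Tmem35, which encodes a chaperone of nicotinic receptors, averaged 6.55 ± 0.966 FPKM in DTG and 1.53 ± 0.333 FPKM in OGA_TG hearts (SD, n = 6 each). These 3 genes rose by 1.58 to 1.61 log2. A further 11 rose by at least 1.24 log2: the protease inhibitor Timp1, the matrix glycoproteins Adamtsl2 and Mfap4, the raft protein Mal, the membrane protease Tmprss13, the glutamine transporter Slc38a1, the substance P precursor Tac1, the mitochondrial aldehyde dehydrogenase Aldh1b1, the TRPV1 regulator Pirt, the linker histone Hist1h1c and the complement protease Masp1. Slc38a1 had 7.99, 11.4 and 15.1 FPKM in DTG hearts and 2.90, 4.13 and 4.92 FPKM in OGA_TG hearts. Hist1h1c was the most abundant of these 14, with 70.1, 80.8 and 87.6 FPKM in DTG hearts and 27.0, 33.8 and 36.5 FPKM in OGA_TG hearts.

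A long noncoding RNA of the cardiac myosin locus rose more than any of these 14 genes. The row D830015G02Rik, which RefSeq names Mhrt and which was picked after its values were seen, lies on chromosome 14 between 54968787 and 54974349, where GENCODE M21 on mm10 places Mhrt on the plus strand, overlapping Myh7 on the minus strand (54970684 to 54994626). It had 994, 1476 and 1675 FPKM in DTG hearts and 240, 277 and 302 FPKM in OGA_TG hearts, with no overlap. The difference was 2.36 ± 0.11 log2 (adjusted p = 2.81e-08). It averaged 497 FPKM in OGT_TG and 158 FPKM in WT hearts. Myh6 and Myh7, the fast and slow cardiac myosin heavy chains, share 1 row of the table with Mir208b, which differed by 0.11 log2 (adjusted p = 0.399). The libraries kept strand, but whether the counting used it is not given in the sources used here, so reads of Mhrt and of Myh7 may not be separated.

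The largest falls included ion channel and receptor genes of the cardiomyocyte. Armc2, known in mouse from sperm tail assembly, had 4.67, 6.62 and 8.50 FPKM in DTG hearts and 21.01, 25.3 and 27.5 FPKM in OGA_TG hearts (-1.80 ± 0.11 log2, adjusted p = 3.02e-07). Scn4b, the sodium channel beta 4 subunit, had 5.46, 8.45 and 8.96 FPKM in DTG hearts and 20.5, 27.2 and 32.9 FPKM in OGA_TG hearts (-1.72 ± 0.10, adjusted p = 1.37e-07). By the rule that chose them, all 6 DTG hearts were below all 6 OGA_TG hearts for both genes. Kcnip2, a subunit of the channel that carries the transient outward potassium current, had 38.6, 48.3 and 52.98 FPKM in DTG hearts and 108, 116 and 127 FPKM in OGA_TG hearts. The alpha-1A adrenergic receptor gene Adra1a averaged 2.44 ± 0.512 FPKM in DTG and 7.17 ± 1.02 FPKM in OGA_TG hearts (SD, n = 6 each). Ptgds, prostaglandin D synthase, had 64.4, 136 and 159 FPKM in DTG hearts and 225, 347 and 374 FPKM in OGA_TG hearts. The other 9 fell by between 1.10 and 1.52 on the log2 scale and were Scgb1c1, Ces1d, Asb5, Alox5, Acad12, Ttll1, Tmem116, Ano10 and Tfpi. Of these, Ces1d is a carboxylesterase, Alox5 the 5-lipoxygenase, Acad12 an acyl-CoA dehydrogenase and Tfpi an inhibitor of coagulation.

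**Figure D2:**
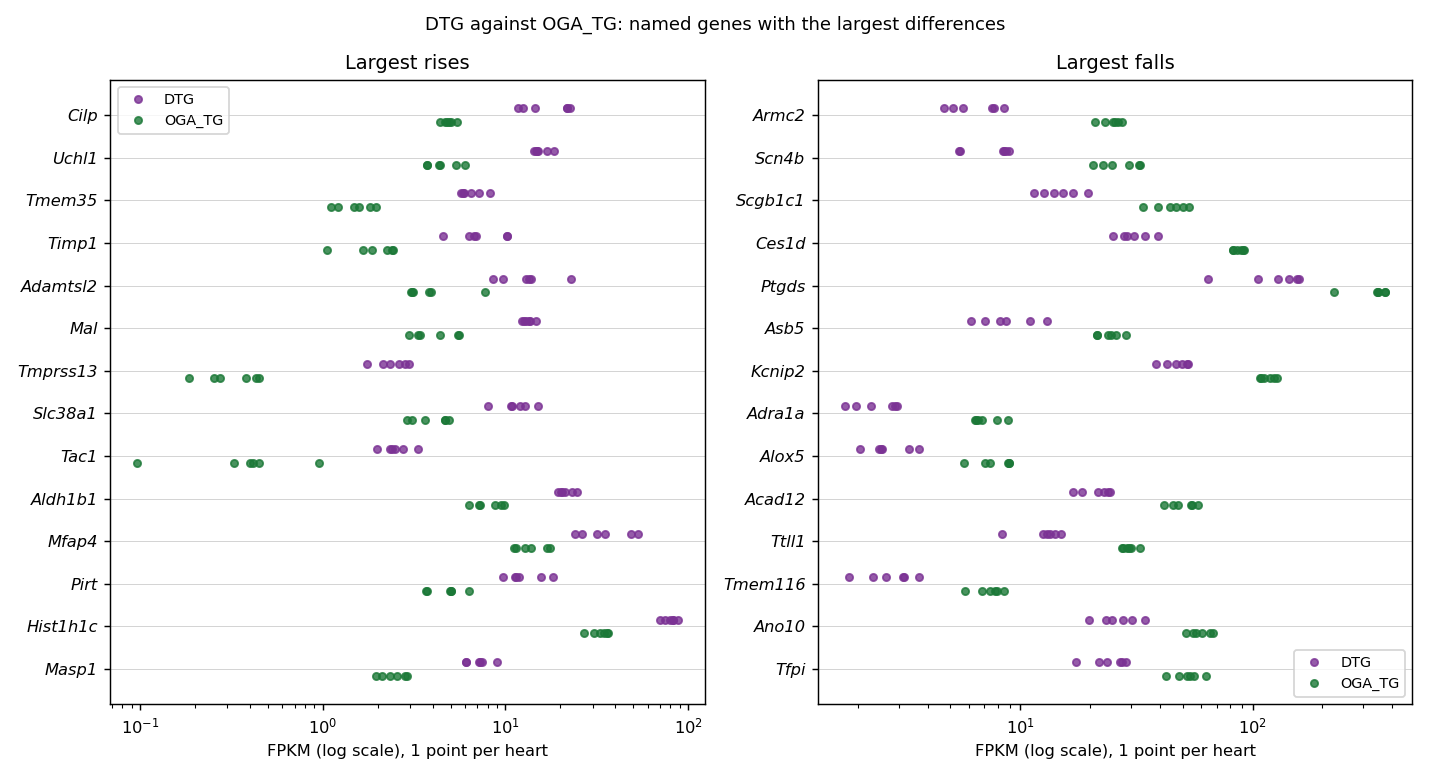
FPKM (horizontal log axis) of 14 of the largest rises and 14 of the largest falls. For each gene the points of the 6 DTG hearts are drawn on a line above those of the 6 OGA_TG hearts, whichever group has the higher FPKM. By the rule that chose them, the 2 groups of points do not overlap for any of the 28 genes.

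Genes of the extracellular matrix rose together. Of 54 tested members, 39 rose, none fell and 15 were not called, against 12.4% of all rows higher, and the median difference was 0.51 log2 against 0.01 for all rows. Bgn, which encodes the proteoglycan biglycan, had 208, 246 and 287 FPKM in DTG hearts and 116, 134 and 169 FPKM in OGA_TG hearts (0.81 ± 0.087, adjusted p = 2.35e-05). Fbln2, fibulin 2, averaged 36.4 ± 4.87 FPKM in DTG and 19.9 ± 3.33 FPKM in OGA_TG hearts (SD, n = 6 each; 0.84 ± 0.10, adjusted p = 5.45e-05). For both genes the groups did not overlap. Thbs4, thrombospondin 4, had 5.15, 7.41 and 8.24 FPKM in DTG hearts and 2.46, 2.84 and 3.20 FPKM in OGA_TG hearts. The fibrillar collagen gene Col1a1 averaged 22.1 ± 3.18 FPKM in DTG and 13.3 ± 3.14 FPKM in OGA_TG hearts (SD, n = 6 each; 0.71 ± 0.14, adjusted p = 0.00286). Postn, periostin, overlapped, with 18.5, 31.5 and 49.5 FPKM in DTG hearts and 15.7, 17.4 and 22.7 FPKM in OGA_TG hearts. Relative to the OGA_TG mean of each gene, the median over the list was 0.27 to 0.67 log2 in each of the 6 DTG hearts and -0.16 to 0.11 in each of the 6 OGA_TG hearts. In a fit of all 24 hearts, which called 18.1% of rows for DTG against OGA_TG (8.33% higher and 9.77% lower), 13 members rose, and Col1a1 and Postn were not among them (adjusted p = 0.198 and 0.119). In a fit of females alone, where 433 of all rows rose in place of 1430, 20 members rose.

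Fibroblast markers moved with the matrix genes, but Col1a1 is in both lists, so the lists are not independent. Of 14 tested markers, 8 rose, none fell and 6 were not called, with a median of 0.36. Of all rows 12.4% were higher and 12.7% lower, for this and the marker lists below. Their summed level was 1398 to 1826 FPKM in DTG and 1158 to 1361 FPKM in OGA_TG hearts, and no marker was at 0. Pcolce, a collagen processing enhancer, had 44.7, 47.2 and 57.7 FPKM in DTG hearts and 17.3, 26.2 and 29.9 FPKM in OGA_TG hearts (0.96 ± 0.12, adjusted p = 9.88e-05), and Islr rose by 0.72 log2 (adjusted p = 8.88e-05). The 6 markers that were not called included decorin (Dcn, 0.18, adjusted p = 0.136), Pdgfra (0.19, adjusted p = 0.255), Tcf21 (0.32, adjusted p = 0.0831) and Lum (0.26, adjusted p = 0.166). In whole hearts, more cells of a type and more RNA per cell cannot be told apart. The part of fibroblast number in the matrix result was not tested. Of 13 tested endothelial markers, 12 were not called, and Aqp1 fell. Macrophage markers, 18 with a row, summed to 253 to 366 FPKM in DTG and 221 to 265 FPKM in OGA_TG hearts. Of the 16 tested, 4 rose, which were Lgals3 (0.83 ± 0.087, adjusted p = 2.01e-05) and the complement genes C1qa, C1qb and C1qc. The C1q calls rested on single hearts: only Lgals3 rose without OGA_TG replicate 3, 4 or 5 or DTG replicate 3 or 4, and none of the 4 was called in the fit of all 24 hearts. With title number as a random block 1 macrophage marker rose.

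**Figure D3:**
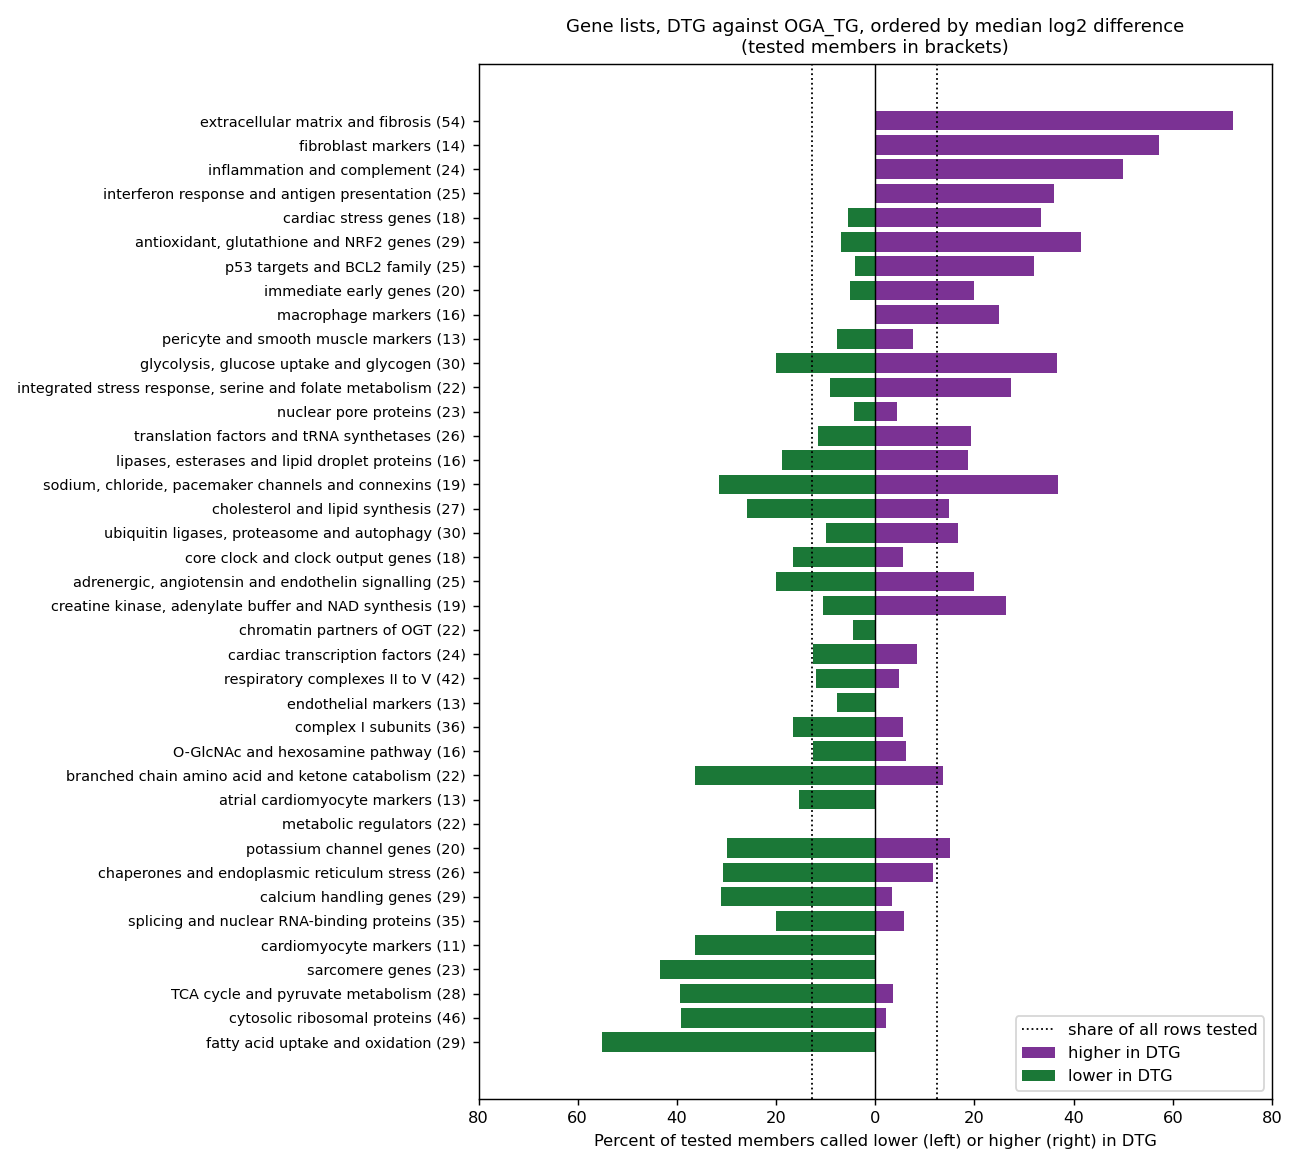
Percent of the tested members of each gene list (number in brackets) called higher or lower in DTG than in OGA_TG hearts, with dotted lines at 12.4% and 12.7%, the shares of all rows. Matrix and fibroblast lists extend furthest to the higher side and fatty acid genes furthest to the lower side.

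Of the genes most used as markers of cardiac stress, 4 were not called. The natriuretic peptide gene Nppa had 1542, 2070.2 and 2438 FPKM in DTG hearts and 1566, 2037 and 2484 FPKM in OGA_TG hearts (0.03 ± 0.11, adjusted p = 0.893). Nppb had 151, 161 and 395 FPKM in DTG hearts and 193, 249 and 301 FPKM in OGA_TG hearts (-0.29 ± 0.20, adjusted p = 0.325). Ankrd1, a stretch-responsive sarcomere and nuclear protein, had 899, 1124 and 1356 FPKM in DTG hearts and 798, 933 and 1157 FPKM in OGA_TG hearts (0.27 ± 0.11, adjusted p = 0.0941). Skeletal actin Acta1, part of the fetal programme, had 83.7, 157 and 277 FPKM in DTG hearts and 64.5, 128 and 186 FPKM in OGA_TG hearts (0.48 ± 0.26, adjusted p = 0.204). The ranges of the groups overlapped for all 4, and none passed the test, though Ankrd1 was called with equal sums and without DTG replicate 4. Over the stress list, the median relative to the OGA_TG mean was 0.05 to 0.39 in the DTG hearts and -0.20 to 0.09 in the OGA_TG hearts. Of the 18 tested members of the stress list, 6 rose and 1 fell, against 12.4% of all rows higher and 12.7% lower. Cdkn1a, the cell cycle inhibitor p21, had 17.4, 18.7 and 20.7 FPKM in DTG hearts and 5.34, 8.69 and 13.2 FPKM in OGA_TG hearts (1.08 ± 0.14, adjusted p = 0.000105). The angiotensin-converting enzyme gene Ace rose by 0.72 log2 and the calcineurin target Rcan1 by 0.58. Fhl1, Fhl2 and Xirp1 rose by 0.38 to 0.41. Myh7b, a myosin gene, fell by 0.90 on the log2 scale (adjusted p = 0.00142).

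Several interferon-induced and antigen presentation genes were higher in DTG hearts. Type I interferon acts through factors that bind a promoter element built on the letters GAAA, any 2 bases and GAAA again, from which antiviral genes are induced. Of 25 tested members, 9 rose, none fell and 16 were not called, against 12.4% of all rows higher, and the median difference was 0.25 log2. With title number as a random block 4 rose, and B2m, Ifit1, Bst2 and Oasl2 were not called. Isg15, a ubiquitin-like antiviral protein, had 7.50, 10.3 and 12.7 FPKM in DTG hearts and 3.31, 5.61 and 6.33 FPKM in OGA_TG hearts (0.82 ± 0.12, adjusted p = 0.000263). Irf7, a transcription factor of the response, had 8.43, 10.8 and 17.1 FPKM in DTG hearts and 4.08, 5.13 and 6.91 FPKM in OGA_TG hearts (0.97 ± 0.14, adjusted p = 0.000332). For these 2 genes, and for the RNA sensor gene Oas1a (0.46 ± 0.091, adjusted p = 0.00258), the 6 DTG hearts lay above the 6 OGA_TG hearts. B2m, the light chain of MHC class I, had 315, 362 and 469 FPKM in DTG hearts and 247, 294 and 356 FPKM in OGA_TG hearts (0.35 ± 0.092, adjusted p = 0.0134). Ifit1 had 3.25, 4.81 and 6.34 FPKM in DTG hearts and 2.50, 3.24 and 4.37 FPKM in OGA_TG hearts, which overlapped (0.42 ± 0.11, adjusted p = 0.0149). Bst2, Oasl2, H2-D1 and H2-K1 also rose, by 0.25 to 0.43, and the calls of Bst2 and Oasl2 did not hold without some single hearts (without OGA_TG replicate 1, 2, 3 or 5 or DTG replicate 4 or 5 for Bst2; without OGA_TG replicate 2 or 6 or DTG replicate 2, 4, 5 or 6 for Oasl2).

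Promoters of 4 of these genes are printed because they hold the interferon element. The windows run from 250 bases before to 50 after the RefSeq start (build GRCm38.p6, the assembly behind mm10), 5′ to 3′ on the strand of the gene, with matches to that element on either strand in capitals and overlapping matches merged.
Isg15 (chr4:156200769-156201068, minus strand): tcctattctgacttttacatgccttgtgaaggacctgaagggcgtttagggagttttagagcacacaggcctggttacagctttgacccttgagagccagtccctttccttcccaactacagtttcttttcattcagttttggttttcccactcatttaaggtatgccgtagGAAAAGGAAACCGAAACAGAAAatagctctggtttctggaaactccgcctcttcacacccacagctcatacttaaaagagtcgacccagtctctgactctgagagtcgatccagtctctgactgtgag
Ifit1 (chr19:34640639-34640938, plus strand): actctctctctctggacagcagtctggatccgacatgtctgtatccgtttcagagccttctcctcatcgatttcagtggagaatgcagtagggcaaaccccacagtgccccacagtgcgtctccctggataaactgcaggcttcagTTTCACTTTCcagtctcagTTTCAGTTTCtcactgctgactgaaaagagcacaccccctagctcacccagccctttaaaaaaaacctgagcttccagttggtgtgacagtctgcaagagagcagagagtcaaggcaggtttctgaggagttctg
Oas1a (chr5:120907476-120907775, minus strand): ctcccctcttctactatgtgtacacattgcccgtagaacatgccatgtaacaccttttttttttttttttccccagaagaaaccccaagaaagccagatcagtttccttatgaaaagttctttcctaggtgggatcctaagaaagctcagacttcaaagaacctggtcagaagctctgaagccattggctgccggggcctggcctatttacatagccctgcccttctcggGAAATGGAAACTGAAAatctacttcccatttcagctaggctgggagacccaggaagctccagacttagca
B2m (chr2:122147437-122147736, plus strand): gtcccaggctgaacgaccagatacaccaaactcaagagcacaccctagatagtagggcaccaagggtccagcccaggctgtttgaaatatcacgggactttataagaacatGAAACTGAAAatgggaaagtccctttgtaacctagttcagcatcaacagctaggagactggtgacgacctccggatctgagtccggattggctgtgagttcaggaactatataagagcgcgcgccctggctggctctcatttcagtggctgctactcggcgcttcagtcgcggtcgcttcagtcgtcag
The windows of Isg15, Ifit1, Oas1a and B2m held 3, 2, 2 and 1 matches. Bst2 also held the element, and the other 4 genes that rose (Irf7, Oasl2, H2-D1 and H2-K1) held no such letters in this window. The element was in 5 of 9 windows of the interferon genes that rose, in 9 of the 21 tested interferon genes with a window, and in 3.52% of all 8897 tested genes with a window. It was in 3.95% of windows of all genes that rose and in 2.36% of those that fell. The motif was looked for after the values were seen, and a match does not show that a factor binds there.

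Inflammation, oxidative stress and p53 target genes also held more rises than falls. Of 24 inflammation and complement genes, 12 rose and none fell, against 12.4% of all rows higher and 12.7% lower, with a median of 0.32. With title number as a random block, under which 707 of all rows rose in place of 1430, 6 rose. The chemokine gene Ccl2 had 2.37, 3.61 and 5.16 FPKM in DTG hearts and 1.10, 1.52 and 2.03 FPKM in OGA_TG hearts (0.84 ± 0.11, adjusted p = 0.000163), and complement gene C4b rose by 0.60 log2 (adjusted p = 0.00221). In the fit of all 24 hearts 5 of these genes rose. Of 29 antioxidant and glutathione genes, 12 rose and 2 fell, with a median of 0.14. Extracellular superoxide dismutase, Sod3, had 28.7, 33.1 and 35.3 FPKM in DTG hearts and 13.8, 16.3 and 17.1 FPKM in OGA_TG hearts (1.00 ± 0.069, adjusted p = 7.23e-07), and heme oxygenase Hmox1 rose by 0.80 log2 (adjusted p = 0.000266). Of 25 p53 targets and BCL2 family genes, 8 rose and 1 fell, with a median of 0.14, and 5 rose under the block. Phlda3, a p53 target that restrains AKT, had 9.44, 10.1 and 12.6 FPKM in DTG hearts and 3.76, 4.27 and 5.44 FPKM in OGA_TG hearts, without overlap (1.12 ± 0.079, adjusted p = 7.99e-07). Gadd45g rose by 0.89 log2 and the survival gene Bcl2 was not called (0.07, adjusted p = 0.415). Of 22 genes of the integrated stress response and serine and folate metabolism, 6 rose and 2 fell. Mthfd2, a mitochondrial folate enzyme, had 2.40, 2.98 and 4.15 FPKM in DTG hearts and 0.662, 1.02 and 1.22 FPKM in OGA_TG hearts (1.07 ± 0.12, adjusted p = 2.75e-05). The amino acid transporter gene Slc7a5 rose by 0.63 and the stress factor gene Ddit3 by 0.58, while the mitochondrial serine enzyme gene Shmt2 fell by 0.60 on the log2 scale.

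Fatty acid genes fell as a group. Adult heart draws most of its energy from the oxidation of fatty acids in mitochondria. Of 29 tested genes of fatty acid uptake and oxidation, 16 fell, none rose and 13 were not called, against 12.7% of all rows lower, and the median was -0.26 log2. In a fit of females alone, where 464 of all rows fell in place of 1468, 9 fell. Hadhb, a subunit of the trifunctional enzyme of beta-oxidation, had 739, 828 and 852 FPKM in DTG hearts and 1276, 1369 and 1570.5 FPKM in OGA_TG hearts (-0.77 ± 0.057, adjusted p = 1.1e-06). Acadm, medium-chain acyl-CoA dehydrogenase, had 510.0, 575 and 636 FPKM in DTG hearts and 829, 883 and 928 FPKM in OGA_TG hearts (-0.62 ± 0.049, adjusted p = 2.25e-06). Neither gene's groups overlapped. The fatty acid transporter gene Cd36 had 442, 464 and 520 FPKM in DTG hearts and 560, 592 and 749 FPKM in OGA_TG hearts (-0.40 ± 0.074, adjusted p = 0.00146). Lipoprotein lipase, Lpl, fell by 0.51 on the log2 scale, Acadvl by 0.28 and Cpt2, which completes entry of fatty acids into mitochondria, by 0.26. Among their regulators, none of the 22 tested genes was called (4 had an unadjusted p under 0.05 in the same limma fit, and no count tool can be run on FPKM), with -0.25 for Ppargc1a (adjusted p = 0.073) and -0.15 for Ppara (0.272).

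Other energy genes changed less evenly. Of 28 genes of the TCA cycle and pyruvate metabolism, 11 fell and 1 rose, with a median of -0.11. Of all rows 12.7% were lower and 12.4% higher. In the fit of all 24 hearts 6 fell, as did 6 under the block. Ogdh, of the oxoglutarate dehydrogenase complex, had 326, 376 and 390 FPKM in DTG hearts and 462, 529 and 552 FPKM in OGA_TG hearts (-0.49 ± 0.044, adjusted p = 5.23e-06), and the aspartate aminotransferase gene Got1 fell by 0.45 on the log2 scale. Respiratory chain genes were mostly not called. Of 36 complex I genes 6 fell and 2 rose, and of 42 genes of complexes II to V 5 fell and 2 rose. Both shares of falls were near that of all rows. Sdha, the flavoprotein of complex II, fell by 0.36 (adjusted p = 9.81e-05) and Ndufa3 of complex I by 0.42 (adjusted p = 5.11e-05). Glycolysis and glycogen genes split, with 11 of 30 higher (6 under the block) and 6 lower. Pgam1, phosphoglycerate mutase, had 47.3, 56.0 and 68.2 FPKM in DTG hearts and 31.7, 35.6 and 40.3 FPKM in OGA_TG hearts (0.66 ± 0.08, adjusted p = 7.1e-05). The phosphofructokinase gene Pfkp rose by 0.49 log2. Nampt, the enzyme that salvages nicotinamide for NAD, had 32.5, 36.8 and 42.1 FPKM in DTG hearts and 61.7, 65.9 and 71.3 FPKM in OGA_TG hearts (-0.82 ± 0.06, adjusted p = 9.88e-07). Ckb, the brain form of creatine kinase, rose by 0.90 (adjusted p = 0.00564). In cholesterol and lipid synthesis, 4 of 27 rose, near the share of all rows, and 7 fell, with values such as Hsd17b7 (0.81) and Fdps (-0.74).

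Calcium handling and sarcomere genes were lower more often than higher, and channel genes moved both ways. Of 29 calcium handling genes, 9 fell and 1 rose, against 12.7% of all rows lower and 12.4% higher, with a median of -0.10. Atp2a2, the pump SERCA2 that refills the sarcoplasmic reticulum, had 2795, 2980.3 and 3053 FPKM in DTG hearts and 4181, 4374 and 4971 FPKM in OGA_TG hearts (-0.59 ± 0.05, adjusted p = 3.66e-06). Its inhibitor phospholamban, Pln, had 1677, 1873 and 2068 FPKM in DTG hearts and 2779.7, 3053 and 3423 FPKM in OGA_TG hearts (-0.72 ± 0.066, adjusted p = 7.16e-06). Neither gene's groups overlapped, and the calcium-binding protein gene Hrc fell with them (-0.55). The 1 rise was Stim1, the sensor of store calcium, with 13.2, 14.2 and 15.6 FPKM in DTG hearts and 7.02, 7.87 and 9.03 FPKM in OGA_TG hearts (0.78 ± 0.062, adjusted p = 2.25e-06). Of 23 sarcomere genes, 10 fell and none rose, with a median of -0.11; with quantile normalization the median was 0.00, 7 fell and 3 rose, with equal sums 8 fell and 3 rose, and under the block 6 fell. Myot, a Z-disc protein, had 10.9, 11.9 and 15.0 FPKM in DTG hearts and 16.9, 24.7 and 32.9 FPKM in OGA_TG hearts (-0.95 ± 0.11, adjusted p = 3.96e-05). Myom2 of the M band fell by 0.35 and troponin T, Tnnt2, by 0.27 on the log2 scale. Of 20 potassium channel genes, 6 fell and 3 rose, the rises near the share of all rows. The inward rectifier gene Kcnj2 had 15.9, 21.5 and 30.7 FPKM in DTG hearts and 9.66, 11.9 and 14.1 FPKM in OGA_TG hearts (0.84 ± 0.13, adjusted p = 0.000402), and Kcnq1 rose by 0.60, while Kcnv2 fell by 0.84. Of 19 genes of sodium and chloride channels, pacemaker channels and connexins, 7 rose and 6 fell, from Scn10a (0.91) to Scn4b. The ventricular connexin gene Gja1 had 244, 246 and 272 FPKM in DTG hearts and 189, 203 and 226 FPKM in OGA_TG hearts, without overlap (0.30 ± 0.051, adjusted p = 0.000828).

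Ribosomal protein genes fell by small amounts. Of 46 tested, 18 fell and 1 rose, against 12.7% and 12.4% of all rows, with a median of -0.12. With title number as a random block 10 fell and none rose. The list median relative to the OGA_TG mean was -0.22 to -0.02 in DTG hearts and -0.08 to 0.09 in OGA_TG hearts, which overlap. Rpl10 had 379, 399 and 406 FPKM in DTG hearts and 480, 486 and 513 FPKM in OGA_TG hearts (-0.31 ± 0.038, adjusted p = 6.55e-05). The muscle form Rpl3l fell by 0.51 on the log2 scale (adjusted p = 0.000265), and the 1 rise was its ubiquitous counterpart Rpl3 (0.21 ± 0.052, adjusted p = 0.00905), whose call was lost under the block, in either sex alone and in the fit of all 24 hearts. Reads of ribosomal protein genes can be shared with processed pseudogenes, so these values are uncertain. Of 26 translation factor and tRNA synthetase genes, 5 rose and 3 fell. The elongation factor gene Eef1a1, the form that adult cardiomyocytes largely replace with another, had 1103, 1232 and 1577 FPKM in DTG hearts and 606, 702 and 761 FPKM in OGA_TG hearts (0.86 ± 0.07, adjusted p = 2.82e-06), and Eef1b2 fell by 0.34. Of 24 cardiac transcription factors, 19 were not called, and Hopx, a homeodomain protein without DNA binding, averaged 113 ± 12.7 FPKM in DTG and 203 ± 10.8 FPKM in OGA_TG hearts (SD, n = 6 each; -0.85 ± 0.069, adjusted p = 2.5e-06). Of the 22 tested chromatin partners of OGT, 1 fell and none rose, and of 23 nuclear pore genes, whose proteins are heavily modified by O-GlcNAc, 1 rose and 1 fell.

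Of 26 chaperone and stress genes of the endoplasmic reticulum and the cytosol, 8 fell, 3 rose and 15 were not called, with a median of -0.10. Of all rows 12.7% were lower and 12.4% higher, for this and the other lists of this paragraph. The 8 that fell are known from the endoplasmic reticulum and its stress response, a grouping made after the values were seen: Pdia6 (-0.49), Hsp90b1, Manf, Canx, Hspa5, Dnajb9, Xbp1 and Calr. The 3 rises were cytosolic (Hsp90aa1, Hspb6 and Hspb1), and only 1 of them was called without OGA_TG replicate 3 or 5 or DTG replicate 2. With title number as a random block 3 fell and 1 rose. In a fit of males alone, where 633 of all rows fell in place of 1468, 1 fell. Of 22 genes of branched chain amino acid and ketone catabolism, 8 fell and 3 rose, the rises near the share of all rows. There were 4 falls in the fit of all 24 hearts and 5 under the block. Of 35 splicing genes, 7 fell and 2 rose, with 4 falls without OGA_TG replicate 4, 3 with equal sums and 3 under the block, and Rbfox1, a splicing regulator of muscle and neurons, fell by 0.74 on the log2 scale. Ubiquitin and autophagy genes (5 of 30 higher, 3 lower) and adrenergic and angiotensin genes (5 of 25 higher, 5 lower) stood against 12.4% of all rows higher and 12.7% lower. Of 7 adipocyte markers, 3 rose and 1 fell, and under the block 1 rose. The call of Cidea held in all 26 alternatives, while that of Cfd was lost without OGA_TG replicate 1, 2, 4 or 6 or DTG replicate 3, 4 or 5, and that of Cidec without the same hearts or OGA_TG replicate 3. Uchl1, described above, is also among the 6 tested Schwann cell and neuron markers, of which 2 rose, with a list median of 0.18. The other rise, Dbh (0.39, adjusted p = 0.0472), lost its call in 17 of 26 alternatives. The 9 markers with a row summed to 28.2 to 33.3 FPKM in DTG and 14.0 to 20.4 FPKM in OGA_TG hearts. These sums include Uchl1, whose own values are given above.

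The OGT transgene could be followed without the OGA transgene by setting OGT_TG against WT hearts, which share no heart with the comparison above. Over 11563 rows the DTG minus OGA_TG differences and the OGT_TG minus WT differences had a Pearson correlation across genes of 0.603 (Spearman 0.544), and genes are not independent replicates. Of the rows called in DTG against OGA_TG, 1601 were also called in the same direction in OGT_TG against WT, which is 55.3% of the DTG calls and 37.2% of the OGT_TG calls among these rows, and 79 were called in opposite directions. OGT_TG replicates 3 and 6 stood apart from the other 4 OGT_TG hearts: relative to the OGA_TG mean, the median over matrix genes was 2.48 and 2.34 log2 in them and 0.70 to 0.91 in the others. Without them the correlation was 0.595, with 1322 rows called in both in the same direction. In OGT_TG against WT hearts 37.4% of 12020 rows were called, 25.2% higher and 12.2% lower. The OGT row itself was higher in DTG hearts (4652 ± 449 FPKM) than in OGT_TG hearts (1748 ± 737 FPKM; SD, n = 6 each). The level of OGT RNA and the presence of the OGA transgene therefore cannot be told apart between these comparisons, here and below.

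The difference between both differences was tested as an interaction in all 24 hearts, and a negative value means that DTG minus OGA_TG was the smaller, or more negative, of both differences. Of 12020 rows, 877 (7.3%) were called, 217 positive (1.81%) and 660 negative (5.49%). Library weights gave 2085 calls. OGT_TG and WT hearts share title numbers, and with title number as a random block 423 were called. With median-of-ratios scaling the positive share of calls was 44.3% and with quantile normalization 46.4%, against 24.7% as deposited, so the balance of directions depends on scaling. Without OGT_TG replicates 3 and 6 the calls were 115 positive and 424 negative. Single hearts moved the count too: it was 515 without WT replicate 6, 516 without OGT_TG replicate 3, 526 without DTG replicate 3, 539 without OGA_TG replicate 5, 563 without DTG replicate 2, 568 without WT replicate 2 and 1448 without OGT_TG replicate 2.

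Matrix genes, and some stress genes, differed less in DTG against OGA_TG than in OGT_TG against WT hearts. The median interaction of all rows was -0.065. Of 57 matrix genes tested in this fit, 20 had a negative interaction and none a positive one, and without OGT_TG replicates 3 and 6 the counts were 19 and 0 of 56. The median matrix difference was 0.51 in DTG against OGA_TG hearts and 1.34 in OGT_TG against WT hearts, or 0.74 in OGT_TG against WT hearts without replicates 3 and 6. Cilp differed by 1.61 in DTG against OGA_TG and by 3.28 in OGT_TG against WT hearts (interaction -1.67, adjusted p = 0.0117; -1.13 without both hearts). Ankrd1 averaged 1139.8 FPKM in DTG, 945 in OGA_TG, 3823 in OGT_TG and 886 in WT hearts (interaction -1.81, adjusted p = 0.000912; -1.51 without both hearts). Nppb averaged 215 FPKM in DTG, 248 in OGA_TG, 906 in OGT_TG and 291 in WT hearts (interaction -1.80, adjusted p = 0.014; -1.32 without both hearts). Nppa had an interaction of -1.19 that did not pass (adjusted p = 0.0754). Bcl2 (-1.06, adjusted p = 0.000325) and the hexosamine gene Gfpt2 (-0.71, adjusted p = 0.000912) had negative interactions as well, and were not called in DTG against OGA_TG hearts. For fatty acid genes the medians were -0.26 in DTG against OGA_TG and -0.59 in OGT_TG against WT hearts, with 2 positive interactions among 29 genes and none negative. Without OGT_TG replicates 3 and 6 the OGT_TG minus WT median was -0.40, the median interaction was 0.07 in place of 0.27, and 1 interaction was called.

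Some genes had a positive interaction, which means that DTG minus OGA_TG was the higher, or less negative, of both differences. It need not be the larger in size. Tmprss13 averaged 2.43 FPKM in DTG, 0.329 in OGA_TG, 0.779 in OGT_TG and 0.797 in WT hearts, so OGA_TG was the low group (interaction 1.40, adjusted p = 0.000653; 1.20 without OGT_TG replicates 3 and 6). Kcnj2 differed by 0.84 in DTG against OGA_TG and by -0.50 in OGT_TG against WT hearts (interaction 1.34, adjusted p = 0.00623). Without OGT_TG replicates 3 and 6 its OGT_TG minus WT difference was -0.14 (adjusted p = 0.452) and its interaction 0.99. The phosphorylase kinase gene Phkg1 differed by 0.64 in DTG against OGA_TG and by -0.90 in OGT_TG against WT hearts (interaction 1.54, adjusted p = 0.00764), and without the same hearts the OGT_TG minus WT difference was -0.44 and the interaction 1.07. The mouse enzyme genes differed between the backgrounds as well: the interaction was -0.51 for Ogt (adjusted p = 0.00654) and 0.57 for Mgea5 (adjusted p = 0.0379). The Mgea5 interaction was not called without either of OGT_TG replicates 3 and 6, OGA_TG replicates 1, 2 and 6, DTG replicates 1 and 2 or WT replicates 1, 4 and 5.

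**Figure D4:**
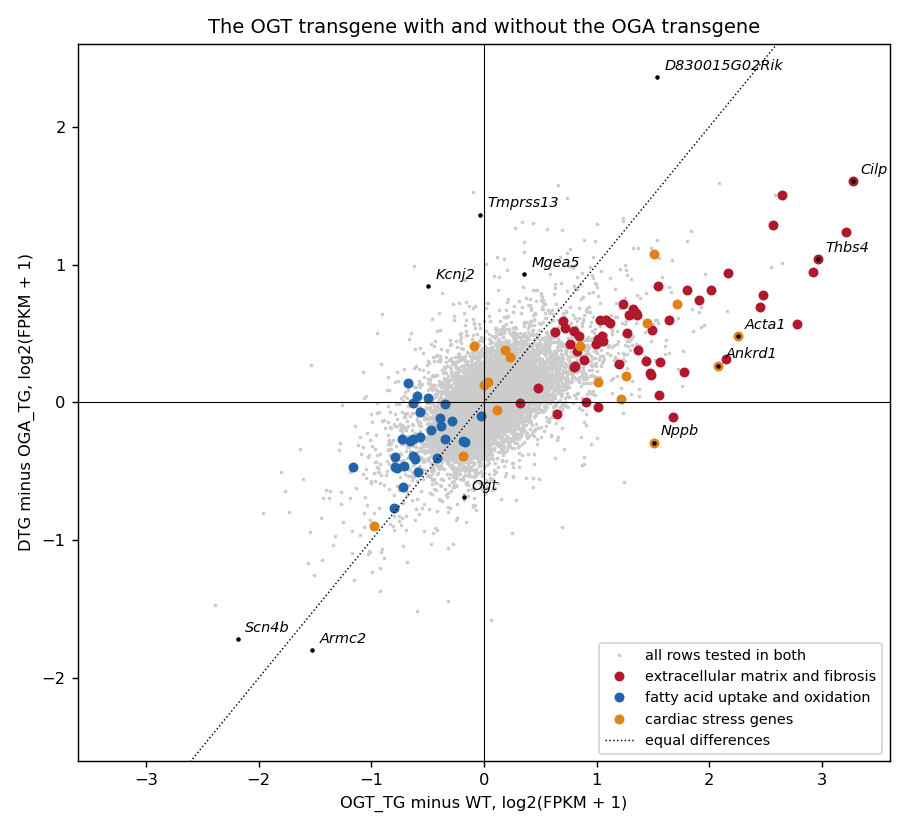
Log2 difference of DTG minus OGA_TG (vertical) against OGT_TG minus WT (horizontal) for 11563 rows, with 3 gene lists coloured and a dotted line of equal differences. Matrix genes lie below the line on the right, while Tmprss13 lies far from 0 on the vertical axis and near it on the horizontal one.

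A difference in response between the sexes was called for 2 of 11565 rows (0.0173%; 613 had an unadjusted p under 0.05 in limma), with 3 hearts of each sex and genotype. Library weights gave 776 such calls and a threshold of 0.01 gave 0, so the count depends on the setting. The 2 genes were Hccs and Msl3, which lie near each other on the X chromosome (169250193 to 169320372 and 168654117 to 168673898, mm10). Hccs, which attaches heme to cytochrome c, had 55.4, 59.6 and 60.7 FPKM in the 3 male DTG hearts and 21.5, 24.2 and 26.1 FPKM in the 3 male OGA_TG hearts. In females it had 30.1, 31.9 and 34.6 FPKM in DTG hearts and 26.1, 26.3 and 31.4 FPKM in OGA_TG hearts. The difference was 1.26 log2 in males and 0.20 in females (adjusted p of the difference = 0.0129). Msl3, of the complex that acetylates histone H4, had 42.3, 43.8 and 45.7 FPKM in male DTG hearts and 22.0, 23.9 and 24.6 FPKM in male OGA_TG hearts. Female hearts had 20.3, 21.7 and 25.1 FPKM in DTG and 23.5, 25.0 and 26.8 FPKM in OGA_TG (adjusted p of the difference = 0.0126). High values were not limited to DTG hearts: the 3 male OGT_TG hearts had 34.99, 45.8 and 49.96 FPKM of Msl3 and 1 of 3 male WT hearts had 48.0 FPKM, against 24.4 and 26.2 FPKM in the other male WT hearts. The male OGA_TG hearts all share 1 title number, so sex and title number cannot be told apart within OGA_TG. The call of Hccs was lost without OGA_TG replicate 2 or DTG replicate 1, 2, 3 or 5, and that of Msl3 without OGA_TG replicate 2 or DTG replicate 1 or 3. Prps2, also X-linked, had a term of 0.79 log2 that did not pass (adjusted p = 0.407).

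**Figure D5:**
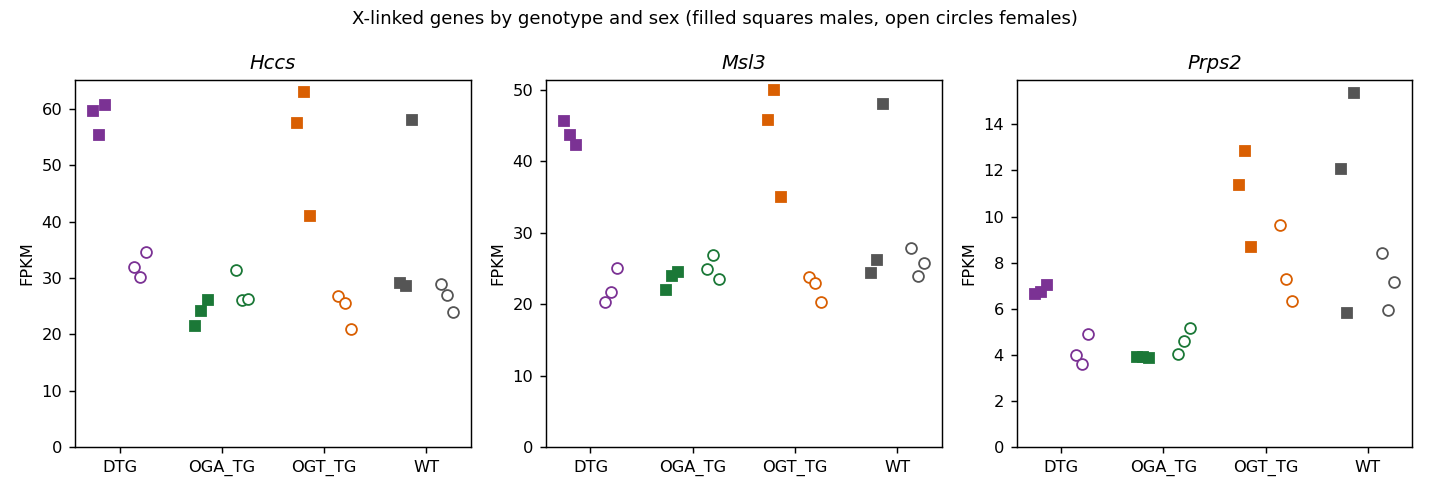
FPKM of Hccs, Msl3 and Prps2 in each heart by genotype, males as filled squares and females as open circles. Male DTG hearts lie above male OGA_TG hearts for all 3 genes, while the females of both genotypes lie close together.

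Read within each sex from the same fit, 878 rows were called in males (7.59%; 3.74% higher and 3.86% lower) and 1936 in females (16.7%; 8.22% higher and 8.52% lower), which does not show that the sexes differ, since the difference itself was called for 2 rows. Vmn1r220, a vomeronasal receptor gene listed at 0 FPKM in every OGT_TG and WT heart, was lower with both transgenes, with 4.68, 6.54 and 8.07 FPKM in DTG hearts and 8.14, 9.35 and 12.3 FPKM in OGA_TG hearts (-0.51 ± 0.10 log2, adjusted p = 0.00228). It was picked after its values were seen.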

How the data were processed

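Values were the FPKM that the authors deposited in 1 table of 19664 gene rows and 24 hearts. Per the labels' protocols, stranded mRNA libraries were read as 100 bp pairs. The submitters' processing notes name FastQC, TopHat, StringTie, Cuffdiff 2.2.1, SAMtools and mm10. 4 rows with missing values were left out, and 343 rows join several symbols. The absolute depth is unknown; relative depth came from ratios of rows with a mean under 0.3 FPKM, of which 57.3% to 72.4% lay within 0.01 log2 of a ratio of whole numbers up to 6. Depth limits low genes most.

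Rows with at least 1 FPKM in at least 6 of the 12 hearts were tested as log2(FPKM + 1) with limma 3.58.1 (trend; R 4.3.3), with genotype and sex as terms and Benjamini-Hochberg adjustment. The interaction used all 24 hearts. On simulated data for DTG against OGA_TG (11565 rows), changed genes were recovered in 73% of cases at a size of 0.5 log2 and in 96% at 1 log2. Alternatives covered the pseudocount, filters, scaling, weights, sex, single hearts and a block. Tables and figures used Python 3.11.15.

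The comparison and the 46 gene lists (1087 members, 1033 with a row, 938 tested) were chosen with earlier results of these data known. Named were the 4 enzyme rows, the 15 largest rises and 15 largest falls among called rows without overlap between groups (2 FPKM or more on average in either genotype, no predicted or joined names), up to 4 called members with the largest differences per list, the 5 largest interactions and sex terms in each direction, and list members by value. Of the 15 rises and 15 falls, 1 each is not reported here. The labels do not say more of the replicates than that they are separate samples, so p-values measure the spread between these samples.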

Additional observations from a re-analysis of the deposited data

Results flagged for a closer look

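Of 222 sets of 6 hearts (111 genes in each genotype), 11 held 1 heart far from the other 5 by Dixon's criterion, about as many as the 11.1 that chance gives at 1 in 20. Adamtsl2 was high in DTG replicate 2 (22.73 FPKM, others 8.53 to 13.8) and in OGA_TG replicate 6 (7.76, others 3.04 to 3.91). DTG replicate 2 was also low for Hadhb (739.2 FPKM, others 816 to 852) and Sdha (539.8, others 593 to 623). DTG replicate 3 was high for Scn10a (4.813 FPKM, others 2.75 to 3.43) and Hopx (136.4, others up to 114). DTG replicate 5 was low for Slc7a5 (1.72 FPKM, others 2.39 to 2.77), and DTG replicate 6 was low for Ttll1 (8.312, others 12.5 to 14.9). OGA_TG replicate 5 was low for Ptgds (225.4 FPKM, others 344 to 374) and high for Postn (22.7, others 15.7 to 18.1). OGA_TG replicate 1 was high for the OGT row (1.106 FPKM, others 0.356 to 0.577), which is far below every DTG heart.

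For 37 named genes the difference of DTG minus OGA_TG hearts differed from that of OGT_TG minus WT hearts by the interaction term in limma. The term was positive, in log2, for OGT (2.13), Phkg1 (1.54), Tmprss13 (1.40), Kcnj2 (1.34), Gal3st3 (1.29), Pirt (0.99), Aldh1b1 (0.86), Kcnq1 (0.75), Mal (0.75), Hsd17b7 (0.69), Mgea5 (0.57), Hist1h1c (0.56), Gja1 (0.45) and Stim1 (0.27). It was negative for Comp (-2.20), Krt18 (-1.98), Ltbp2 (-1.97), Thbs4 (-1.93), Ankrd1 (-1.81), Nppb (-1.80), Acta1 (-1.77), Postn (-1.70), Cilp (-1.67), Bgn (-1.21), Ptgds (-1.12), Bcl2 (-1.06), Rcan1 (-0.86), Dcn (-0.79), Gfpt2 (-0.71), Masp1 (-0.59), Rpl3 (-0.56), Ogt (-0.51), Vmn1r220 (-0.51), Myom2 (-0.51), Fdps (-0.49), Rpl10 (-0.36) and Eef1b2 (-0.23). Without OGT_TG replicates 3 and 6 the calls of Mgea5, Mal, Acta1, Stim1, Eef1b2 and Hsd17b7 were lost, with interactions of 0.38, 0.47, -1.33, 0.29, -0.20 and 0.59. The call of Comp was lost without 16 of the single hearts, and that of Ltbp2 without DTG replicate 3. For Vmn1r220 the OGT_TG and WT hearts are all listed at 0.

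The genotype by sex term in 12 hearts was called for Hccs (1.06 log2) and Msl3 (1.04 log2). Sex and title number cannot be told apart within OGA_TG hearts, and both calls were lost without some single hearts.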

How the results depend on the processing

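The count of 2898 called genes was 1528 at an adjusted p under 0.01, 1240 in males only and 897 in females only, with 3 hearts a group in each. Leaving out 1 heart at a time gave 2280 to 2920. The 877 interaction calls became 2085 with library weights, 146 at an adjusted p under 0.01 and 539 without OGT_TG replicates 3 and 6, and leaving out 1 heart gave 515 to 1448. The 2 genotype by sex calls became 776 with library weights and 0 at an adjusted p under 0.01, and leaving out 1 heart gave 0 to 2. The cause of these moves was not tested. The OGT row varied from 11.48 to 11.61 log2 when 1 heart was left out, mouse Ogt from -0.73 to -0.64 and Mgea5 from 0.88 to 0.98. The OGA row varied from -0.32 to -0.16 and passed without OGA_TG replicate 1 (-0.32). Of 187 called named genes, 98 kept the call in each alternative that gave a value for them (19 to 26 a gene) and 89 lost it in at least 1. Values that changed sign were Nppa DTG vs OGA_TG with library weights (-0.0102), in males only (-0.0266) and without single hearts (-0.0490 to 0.0978 over all of them), Nppb (0.0555) and Acta1 (-0.10) in males only, and Msl3 (-0.16), Prps2 (-0.11) and Gfpt2 (-0.0766) in females only, none of which was called in both sexes together.

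No paired analysis was possible because DTG and OGA_TG hearts share no title number and replicate numbers only follow accession order. A replicate block with title number as a random term gave 1483 calls and 423 interaction calls. Its effect on some of the gene lists stands beside those results. No count under the block is given here for several lists, among them those of matrix, fibroblast, cardiac stress, antioxidant, fatty acid, calcium handling and respiratory chain genes. Among lists with fewer calls, it gave 0 rises in place of 4 for immediate early genes, 1 in place of 4 for cholesterol and lipid synthesis, 3 in place of 5 for translation factors, and 3 falls in place of 6 for sodium, chloride and pacemaker channels and connexins. Low genes are limited by depth, which is known only relative to other hearts.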
